A study of Mus musculus with 6 samples.

Results

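The smooth muscle contractile genes are a set of 10 mouse genes that encode the filaments of contractile smooth muscle and the coactivator that switches them on. Acta2, Tagln, Cnn1, Tpm1, Tpm2 and Lmod1 encode proteins of the actin filament, Myh11 and Myl9 encode parts of smooth muscle myosin, Des encodes an intermediate filament protein, and Myocd encodes the coactivator myocardin. The genes were chosen by name, and all 10 were among the 24421 genes of the count table. RNA was sequenced from primary cultures of cells taken from the stria vascularis, the secretory epithelium with its capillaries along the outer wall of the cochlear duct. The isolation protocol of the study took the stria together with the spiral ligament of the same wall. The cells were isolated as endothelial cells from untreated mice at postnatal days 10 to 12, 3 cultures from Nhe6 KO mice, which carry the disruption in the whole animal, and 3 from wildtype mice. Both groups are labelled as C57BL/6N, whereas the methods of the study describe a backcross to C57BL/6J. Each culture combined the tissue of several mice and was sorted by flow cytometry and passaged, so a library describes a cultured population and not 1 animal.

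In smooth muscle, contraction follows the phosphorylation of the myosin regulatory light chain, whereupon myosin pulls on actin filaments that are stabilised by tropomyosin and bound by calponin and transgelin. The genes for these proteins carry CArG boxes, short sites bound by serum response factor (SRF), and myocardin acts as the coactivator of SRF at these sites. Myocardin-related factors, which are held outside the nucleus by free actin monomers, serve the same sites in cells without myocardin, including fibroblasts. In small vessels the contractile genes mark smooth muscle cells and, in part, pericytes, and Acta2 and Tagln are also known to rise in cultured fibroblasts that turn into myofibroblasts and in endothelial cells that take on mesenchymal features. In RNA from a whole culture, fewer cells of a type and less RNA per cell cannot be told apart.

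Between 25587097 and 29126232 reads per library were assigned to genes, and 13479 genes had enough reads to be tested. A normalized count is a read count scaled to the mean library size. Values are given for replicates 1 to 3 of a genotype in this order throughout. On the first principal component wildtype replicate 2 lay at 111.7, with the other libraries between -30.36 and -6.488, and results that rest on it are given with and without it. The defining endothelial markers were uneven. Cldn5 had 0 counts in each library, and Tie1, Pecam1, Erg, Vwf and Kdr reached at most 2.14, 7.82, 15.5, 23.2 and 70.1 normalized counts. Esam reached 237 in wildtype replicate 2 and at most 28.3 elsewhere. The 8 of the 15 markers that averaged 100 or more were Cdh5, Tek, Egfl7, Emcn, Flt1, Eng, Cd34 and Slc2a1. In wildtype replicate 2 Emcn (409) and Eng (866) had their lowest values and Flt1 (3174) and Cd34 (4864) their highest. Cdh5, the cadherin of endothelial junctions, was the 1 endothelial marker with an adjusted p under 0.05, at 219.8, 232.2 and 178.8 in Nhe6 KO and 2508, 5198 and 3468 in wildtype cultures (log2 fold change -4.15, SE 0.31, adjusted p = 0.0133, edgeR). Summed over 15 endothelial markers, of which 10 were tested, the cultures held 18118 to 27049 normalized counts in Nhe6 KO and 24964, 16806 and 24433 in wildtype. All 12 fibroblast markers were tested, each averaged 100 normalized counts or more, and they summed to between 183006 and 300944. With edgeR 0 of the 12 had an adjusted p under 0.05. DESeq2 called 2 of them, and 627 genes of the whole table. Col3a1, Dcn, Fap and Postn, 4 of the 12, had each Nhe6 KO value above each wildtype value, as did 10.3% of all genes tested. Without wildtype replicate 2, Fap (log2 fold change 1.66, adjusted p = 0.0479, edgeR) and Postn (1.52, adjusted p = 0.0114, edgeR) passed the threshold, as did 2.88% of all genes tested.

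RefSeq promoter windows (GRCm38.p6, 250 bases before to 50 bases after the start of the gene) were held for 7 of the 10 genes and searched for the CArG box in its palindromic form, which is the same on both strands. A CArG-like site is one in which a single inner A or T is replaced by C or G. The CArG box was found in 1 of the 7 windows and in 1.63% of 32851 windows of all genes, and a CArG-like site in 8.5% of all windows. Myl9 held 1 CArG box and 1 CArG-like site, beginning 161 and 99 bases before its start, and Acta2 held 2 CArG-like sites, at 84 and 34 bases before its start. In the windows of Cnn1, Des, Tpm1, Tpm2 and Lmod1 neither was found, and such a match is a description of letters and not of binding. The sites are shown because these genes lay far apart in how their RNA varied between the cultures, with the matched letters in capitals and 10 bases on either side, 5′ to 3′ on the strand of the gene. In GENCODE M21 both Acta2 sites fall within the first exon of a longer Acta2 transcript, and both Myl9 sites lie outside the exons of Myl9.
Acta2 CArG-like, chr19:34255438-34255467 (minus strand): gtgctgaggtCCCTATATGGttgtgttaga
Acta2 CArG-like, chr19:34255388-34255417 (minus strand): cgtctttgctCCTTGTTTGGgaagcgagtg
Myl9 CArG box, chr2:156775293-156775322 (plus strand): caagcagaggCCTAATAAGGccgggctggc
Myl9 CArG-like, chr2:156775355-156775384 (plus strand): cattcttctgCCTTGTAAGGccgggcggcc

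None of the 10 genes changed between the genotypes at an adjusted p under 0.05. For each gene but Lmod1 and Des, the standard deviation among the wildtype cultures was larger than the difference between the genotype means. Acta2 and Tagln were very high in 1 wildtype culture and far lower in the other two. Lmod1 lay lower and Des higher in each Nhe6 KO culture than in any wildtype culture, although neither passed the threshold. Myh11, Cnn1 and Myocd had few reads in both genotypes, and of these only Myh11 had enough to be tested.

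Acta2 encodes smooth muscle alpha actin, the actin isoform of vascular smooth muscle, and lies at chr19:34241090-34255590 on the minus strand of GRCm38. It was measured at 280, 373 and 1204 normalized counts in Nhe6 KO cultures and at 29.3, 16267 and 70.6 in wildtype cultures. The highest library was wildtype replicate 2 and the lowest was wildtype replicate 1, 555-fold apart, and the 3 Nhe6 KO cultures lay between them. With all libraries the log2 fold change was -3.14 (SE 2.13, adjusted p = 0.636, edgeR), and without wildtype replicate 2 it was 3.63 (SE 0.83, adjusted p = 0.0821, edgeR). The direction of the difference thus turned on 1 culture and passed the threshold in neither fit. Among the Nhe6 KO cultures replicate 3 stood at 3.68 times the mean of the other two. Reads on Acta2 made up 0.05763% of the reads assigned to genes in wildtype replicate 2 and between 0.0001052% and 0.004483% in the other libraries.

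Tagln encodes transgelin, an actin-binding protein also called SM22 alpha (chr9:45929619-45936058, minus strand). Its normalized counts were 273, 307 and 842 in Nhe6 KO and 74.3, 5337 and 350 in wildtype cultures. The order was close to that of Acta2, with wildtype replicate 2 highest, Nhe6 KO replicate 3 next and wildtype replicate 1 lowest, but the range was narrower, at 71.8-fold. For Tagln the log2 fold change was -2.02 (SE 1.42, adjusted p = 0.650, edgeR) with all libraries and 1.16 (SE 0.78, adjusted p = 0.475, edgeR) without wildtype replicate 2. The exons of Tagln overlap those of Pcsk7 and Gm48529 on the opposite strand, and the strand setting of the counting is not given in the sources used here, so reads of these genes may not be separate.

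The tropomyosins Tpm1 and Tpm2 encode coiled-coil proteins that lie along the actin filament and are also made by non-muscle cells. Tpm1 (chr9:67022590-67049406) was measured at 6596, 6467 and 8107 normalized counts in Nhe6 KO and 5825, 15662 and 7261 in wildtype cultures. Tpm2 (chr4:43514711-43523765) was measured at 3226, 3598 and 3566 in Nhe6 KO and 3364, 5117 and 2555 in wildtype cultures. Both were highest in wildtype replicate 2, and the genotypes overlapped. The log2 fold change of Tpm1 was -0.44 (SE 0.38, adjusted p = 0.719, edgeR), and without wildtype replicate 2 it was 0.10 (SE 0.17, adjusted p = 0.788, edgeR). For Tpm2 it was -0.09 (SE 0.25, adjusted p = 0.931, edgeR) with that culture and 0.22 (SE 0.15, adjusted p = 0.485, edgeR) without it. Actins and tropomyosins are families of similar sequence, and only uniquely placed reads were counted, so levels of single members are uncertain.

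Lmod1 encodes leiomodin 1, which starts the assembly of actin filaments in smooth muscle (chr1:135324807-135368065). Its normalized counts were 87.1, 110.5 and 166.5 in Nhe6 KO and 316, 172 and 288 in wildtype cultures. Each Nhe6 KO culture was below each wildtype culture, though the highest Nhe6 KO value of 166.5 and the lowest wildtype value of 172.3 were close, and they crossed under upper-quartile scaling (169.1 and 165.2). The log2 fold change was -1.09 (SE 0.35, adjusted p = 0.301, edgeR), and its unadjusted p of 0.0194 was the only one under 0.05 among the genes of the set, where 11.8% of all genes tested were under 0.05. Without wildtype replicate 2 it was -1.32 (SE 0.30, adjusted p = 0.0829, edgeR), so that Lmod1 pointed the same way in both fits.

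Cnn1 encodes calponin 1, which binds actin and restrains the myosin ATPase (chr9:22099216-22109630). It fell below the filter on low counts, with 3, 7 and 25 reads in Nhe6 KO and 0, 32 and 2 reads in wildtype cultures. The order of the libraries was that of Acta2 at a far lower level, with wildtype replicate 2 and Nhe6 KO replicate 3 at the top. When it was tested without the filter, the log2 fold change was -0.08 (adjusted p = 0.994, edgeR).

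Myosin is the motor of contraction, and both myosin genes of the set differed from Acta2 in how they varied. Myh11 encodes the smooth muscle myosin heavy chain and is taken as the most specific marker of smooth muscle (chr16:14194535-14291372). Its normalized counts were 12.7, 14.9 and 18.0 in Nhe6 KO and 16.6, 13.4 and 23.5 in wildtype cultures. The values were low in each library and overlapped between the genotypes, and wildtype replicate 2 was the lowest of the wildtype values. The log2 fold change was -0.23 (SE 0.41, adjusted p = 0.876, edgeR), and without wildtype replicate 2 it was -0.40 (SE 0.42, adjusted p = 0.663, edgeR). Myl9 encodes a regulatory light chain that serves smooth muscle and non-muscle myosin alike (chr2:156775420-156781658). It was measured at 1162, 1186 and 1898 normalized counts in Nhe6 KO and 1237, 878 and 1898 in wildtype cultures. Wildtype replicate 2 was the lowest library for this gene, and the other libraries of both genotypes overlapped. The log2 fold change was 0.08 (SE 0.33, adjusted p = 0.950, edgeR), and without wildtype replicate 2 it was -0.15 (SE 0.29, adjusted p = 0.821, edgeR).

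Des encodes desmin, the intermediate filament protein that ties contractile filaments to the membrane and the neighbouring cell, and it is also a marker of pericytes (chr1:75360329-75368579). Its normalized counts were 167, 122 and 88.9 in Nhe6 KO and 51.8, 4.13 and 56.7 in wildtype cultures. Each Nhe6 KO culture was above each wildtype culture, and wildtype replicate 2 was the lowest library. Its log2 fold change was 1.74 (SE 0.82, adjusted p = 0.472, edgeR) with all libraries and 1.21 (SE 0.35, adjusted p = 0.135, edgeR) without wildtype replicate 2. Gm15179 overlaps Des on the opposite strand, and the limit given for Tagln holds here too. Myocd, the coactivator, was nearly undetected (chr11:65176561-65269989), with 3, 6 and 0 reads in Nhe6 KO and 0, 6 and 1 reads in wildtype cultures. It was not tested under the filter, and without the filter its log2 fold change was 0.26 (adjusted p = 0.964, edgeR).

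**Figure D1:**
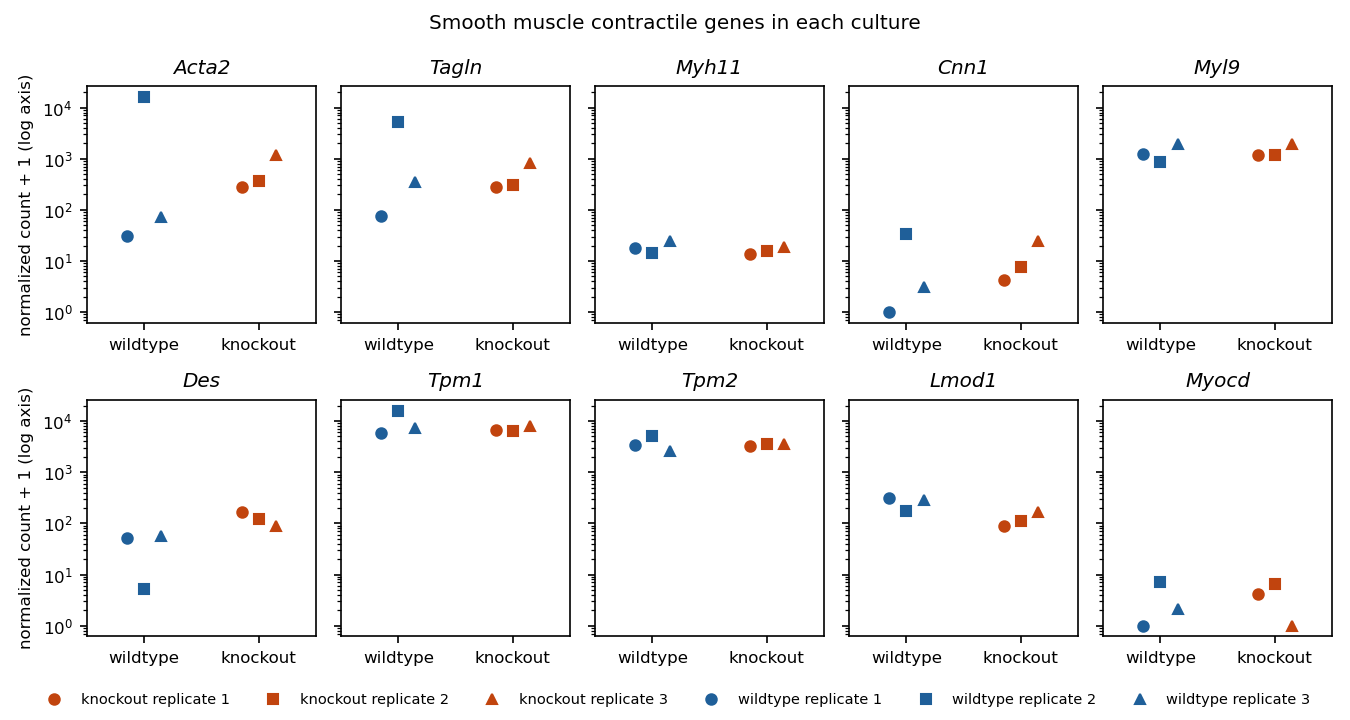
Normalized count plus 1 of each of the 10 smooth muscle contractile genes in the 6 cultures, on log axes, 1 panel per gene and 1 point per culture. Wildtype replicate 2 is the highest point for Acta2 (16267) and Tagln (5337) and the lowest for Des (4.13) and Myl9 (878).

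Of the 10 genes 8 passed the filter, and 0 of the 8 had an adjusted p under 0.05 with edgeR, where 0.0668% of all genes tested did. By DESeq2, which gave Acta2 no adjusted p, and by limma-voom 0 were called as well. The log2 fold change was below 0 for 6 genes and above 0 for 2, with a median of -0.33, and the median over all genes tested was -0.02. Without wildtype replicate 2 the median was 0.16, and again 0 of 8 had an adjusted p under 0.05, where 2.88% of all genes tested did. With all libraries 1 gene, Lmod1, had each Nhe6 KO value below each wildtype value, as did 9.57% of all genes tested, and 1 gene, Des, had each Nhe6 KO value above, as did 10.3%. Without wildtype replicate 2 the genes above were 2, Acta2 and Des, beside 18.9% of all genes tested, and the gene below was again Lmod1, beside 19.3%. These counts are near the shares over all genes. With 3 cultures against 3 the smallest exact permutation p for a single gene is 0.1.

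**Figure D2:**
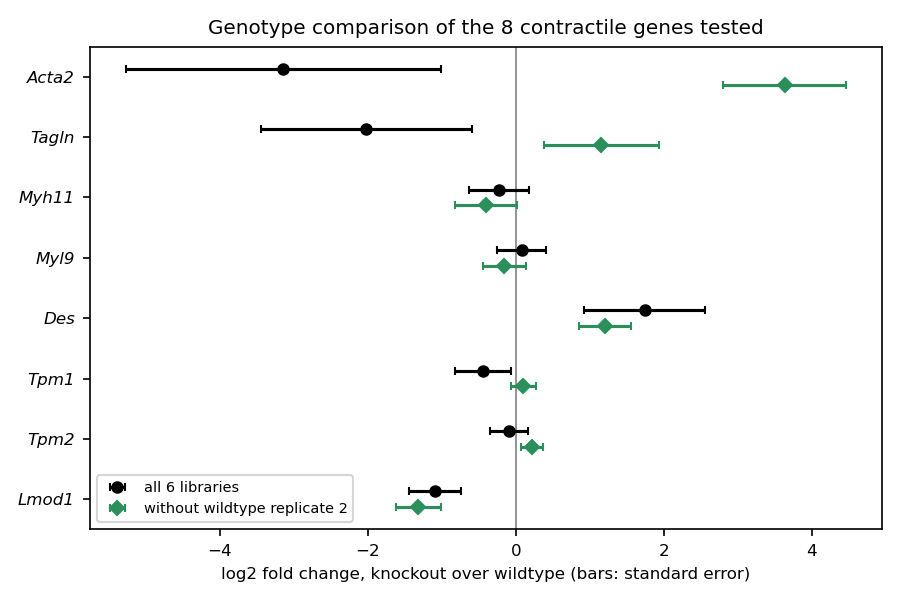
Log2 fold change (Nhe6 KO relative to wildtype) with its SE for the 8 genes that were tested, with all 6 libraries (black circles) and without wildtype replicate 2 (green diamonds). Acta2 moves from -3.14 to 3.63 and Tagln from -2.02 to 1.16, whereas Lmod1 stays below 0 and Des above 0.

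Wildtype replicate 2 differed by 2-fold or more from the mean of the other wildtype cultures in 4 of the 8 contractile genes tested, and the other 4 lay within 2-fold. Acta2 was 326-fold and Tagln 25.2-fold above the mean of wildtype replicates 1 and 3, which placed them at ranks 6 and 59 of the 13479 genes tested. Tpm1 was 2.39-fold and Tpm2 1.73-fold above. Myh11 stood at 0.668, Lmod1 at 0.571, Myl9 at 0.560 and Des at 0.0761 of that mean. Hence 3 of 8 genes were at least 2-fold above, as were 8.64% of all genes tested, and 1 of 8 was at most 0.5 of that mean, as were 13.4%. As this is 1 library, no test of the difference was possible. Summed over the 10 genes, wildtype replicate 2 held 43490 normalized counts, wildtype replicates 1 and 3 held 10913 and 12505, and the Nhe6 KO cultures held 11810 to 15915.

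**Figure D3:**
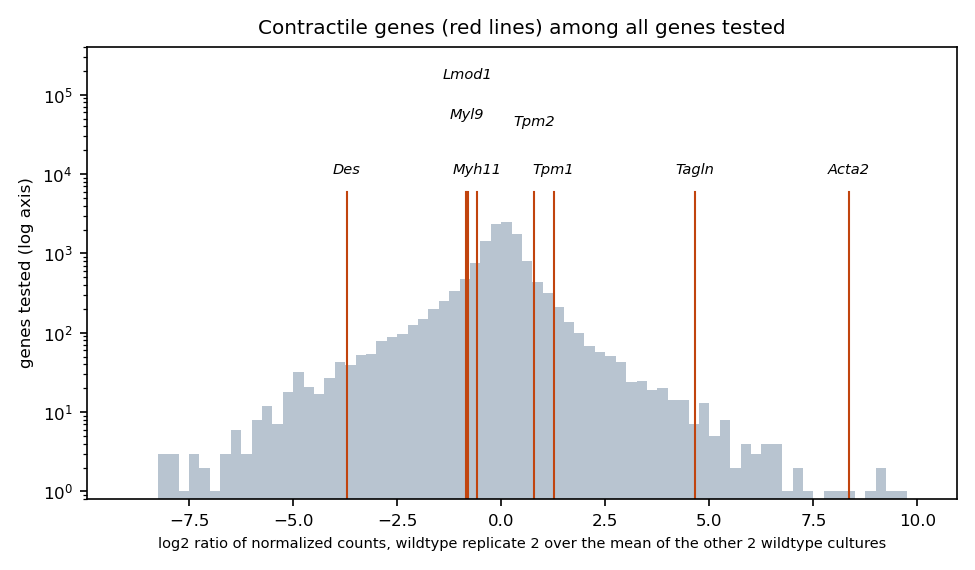
Histogram of the log2 ratio of wildtype replicate 2 to the mean of the other wildtype libraries over all genes tested, with red lines at the 8 smooth muscle contractile genes tested. Acta2 (326-fold) and Tagln (25.2-fold) lie in the right tail, Des (0.0761) in the left tail, and the others nearer the middle.

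Levels were compared between genes per length of exon and per library size, as RPKM. On this scale Tpm1 at 32.6 to 87.7, Tpm2 at 31.9 to 63.9 and Myl9 at 27.4 to 59.3 were the higher genes in most libraries, and their ranges overlapped one another. Acta2 ranged from 0.485 to 269 and Tagln from 1.36 to 97.4, so that in wildtype replicate 2 Acta2 was above each other gene of the set, whereas in wildtype replicate 1 it was below Lmod1. Lmod1 at 0.800 to 2.90 and Des at 0.0399 to 1.61 were lower. Cnn1 at 0 to 0.438, Myh11 at 0.0609 to 0.112 and Myocd at 0 to 0.0350 lay at the bottom. The range of Cnn1 overlapped that of Myh11 and that of Myocd, whereas Myocd lay wholly below Myh11. For scale, Actb, the cytoplasmic beta actin, was at 403 to 764 RPKM.

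Further contractile proteins were read from a list of 15 genes outside the set, of which 11 were tested. With edgeR 0 of the 11 had an adjusted p under 0.05, as with DESeq2 and limma-voom, and the median log2 fold change was -0.40 (-0.11 without wildtype replicate 2). Synpo2, which encodes an actin-bundling protein, had a log2 fold change of -0.90 (SE 0.33, adjusted p = 0.363, edgeR), and Pgm5, a protein of adhesion plaques, had -1.01 (SE 0.35, adjusted p = 0.337, edgeR). These were the genes of the list with an unadjusted p under 0.05. Pln and Kcnmb1 had 0 counts in each library. Actg2, the enteric smooth muscle actin, was measured at 101, 84.5 and 137 normalized counts in Nhe6 KO and 2.93, 298 and 41.7 in wildtype cultures, again with its highest and lowest values in wildtype replicates 2 and 1. Mylk, the kinase of the myosin light chain, was measured at 694, 656 and 1248 in Nhe6 KO and 709, 195 and 1160 in wildtype cultures. It was lowest in wildtype replicate 2, as was its substrate Myl9. Of the 11 genes 5 were at least 2-fold above and 2 at most 0.5 of the other wildtype cultures in that library, beside 8.64% and 13.4% of all genes tested.

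Without wildtype replicate 2, 2 of the 11 genes of this list rose in Nhe6 KO cultures, where 2.88% of all genes tested had an adjusted p under 0.05 in either direction (edgeR). Smtn, which encodes the filament protein smoothelin, was measured at 1516, 1754 and 1256 normalized counts in Nhe6 KO and 383, 1776 and 171 in wildtype cultures, with a log2 fold change of 2.44 without wildtype replicate 2 (SE 0.37, adjusted p = 0.0348, edgeR) and 0.96 with it (adjusted p = 0.704, edgeR). Csrp1, a LIM protein of actin fibres, was measured at 2173, 2256 and 2235 in Nhe6 KO and 1460, 6747 and 1333 in wildtype cultures. Its log2 fold change was 0.66 without wildtype replicate 2 (SE 0.11, adjusted p = 0.0411, edgeR) and -0.52 with it (adjusted p = 0.809, edgeR). For both genes the 3 Nhe6 KO cultures lay between the wildtype cultures.

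The 15 genes of non-muscle actomyosin and focal contacts, which cells of most types use to pull on their surroundings, were all tested, and 0 had an adjusted p under 0.05 or an unadjusted p under 0.05 with edgeR. DESeq2 and limma-voom also called 0. Their median log2 fold change was 0.01 (0.25 without wildtype replicate 2). Without that culture Actn1, which encodes alpha actinin 1, rose in Nhe6 KO cultures by 1.32 on the log2 scale (SE 0.11, adjusted p = 0.0138, edgeR), with 2696, 2739 and 2754 normalized counts against 1036, 4604 and 1144 in wildtype cultures. In wildtype replicate 2, Actn1 (4.22-fold), Flna (2.39-fold) and Myh9 (2.33-fold) were at least 2-fold above the other wildtype cultures, as were 8.64% of all genes tested.

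Among 14 regulators that act with SRF and the myocardin family, 11 were tested and 0 had an adjusted p under 0.05 with edgeR. Srf itself was measured at 1076, 1234 and 2236 normalized counts in Nhe6 KO and 1948, 1121 and 2049 in wildtype cultures, with a log2 fold change of -0.17 (adjusted p = 0.893, edgeR). The myocardin-related factors Mkl1 and Mkl2 had log2 fold changes of 0.28 (adjusted p = 0.662, edgeR) and 0.01 (adjusted p = 0.994, edgeR). Thus the transcripts of SRF and of these partners did not pass the test. Fhl1, a LIM-domain protein abundant in muscle, was measured at 1317, 1313 and 1897 in Nhe6 KO and 3550, 3949 and 4757 in wildtype cultures, and each Nhe6 KO culture was below each wildtype culture. Its log2 fold change was -1.44 (SE 0.20, adjusted p = 0.0800, edgeR), and -1.47 without wildtype replicate 2 (adjusted p = 0.0347, edgeR). DESeq2 called 1 gene of this list, which was Fhl1, and 627 genes of the whole table.

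Cell type markers were read beside the contractile genes. Of 12 pericyte and mural markers 10 were tested and 0 were called with edgeR (1 by DESeq2, Notch3), with a median log2 fold change of 0.82 (0.91 without wildtype replicate 2), and 5 had each Nhe6 KO value above each wildtype value and 1 each below, beside 10.3% and 9.57% of all genes tested. Their sums were 25332 to 26252 normalized counts in Nhe6 KO and 21504, 18658 and 23394 in wildtype cultures, and Pdgfrb held most of each Nhe6 KO sum. Abcc9, Rgs5 and Cox4i2 were, like Des, higher in each Nhe6 KO culture than in any wildtype culture, whereas Cspg4 (log2 fold change -1.27), Vtn (-2.92) and Anpep (-0.45) had values below 0. Pdgfrb, the receptor that defines pericytes and fibroblasts, was at 18353 to 18983 in Nhe6 KO and at 14678, 7790 and 16708 in wildtype cultures, and Higd1b had 0 counts in each library. Notch3, a receptor of mural cells, was measured at 1842, 1945 and 2828 in Nhe6 KO and 692, 1379 and 722 in wildtype cultures. Its log2 fold change was 1.24 (adjusted p = 0.209, edgeR), and 1.64 without wildtype replicate 2 (adjusted p = 0.0307, edgeR). In wildtype replicate 2 Cspg4 reached 4407, with 634 and 385 in wildtype replicates 1 and 3. Kcnj8 had 0 counts in wildtype replicates 1 and 2, and Ndufa4l2 had 0 counts in wildtype replicates 2 and 3. The part of mural cells in the values of Des was not tested.

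Markers of other cell types also differed in wildtype replicate 2. Of the 12 fibroblast markers 4 were at least 2-fold above the mean of the other wildtype cultures there, as were 8.64% of all genes tested. At most 0.5 of it were 3 markers, beside 13.4% of all genes tested, and the median ratio was 0.845. The highest ratio was that of Col1a1 (129), whereas Dcn (0.831), Lum (0.266) and Fap (0.233) were lower in that culture. Col1a1, which encodes a collagen I chain of fibroblasts and bone-forming cells, was at 27174 normalized counts there. It was at 207 and 213 in wildtype replicates 1 and 3 and at 965, 1227 and 513 in Nhe6 KO cultures. Col1a2, which encodes the other collagen I chain, was high in each library and had a ratio of 1.73. It was at 128049, 186223 and 87306 in wildtype and 138944, 145818 and 129944 in Nhe6 KO cultures. The 10 macrophage markers summed to 95.9 in that culture, 6 of them with 0 counts, whereas wildtype replicates 1 and 3 held 3486 and 1829 and Nhe6 KO cultures 1401 to 3634. The 8 epithelial markers summed to 3.09, 6 of them with 0 counts, against 1132 and 492 in wildtype and 56.8 to 715 in Nhe6 KO cultures. Krt14 and Krt5, among these 6, had 0 counts in each library. The 8 melanocyte markers summed to 288 in that culture, to 850 and 1171 in the other wildtype cultures and between 405 and 709.7 in Nhe6 KO cultures. Of 14 striated muscle markers 3 were tested, and Myod1, Myog, Myf5 and Ckm had 0 counts in each library, with sums of 36.1 to 144.9 in Nhe6 KO and 145.4 to 264.9 in wildtype cultures. The 10 cell cycle genes, all tested, had log2 fold changes above 0 with a median of 2.63 (3.01 without wildtype replicate 2). In edgeR 9 had an unadjusted p under 0.05, as did 11.8% of all genes tested, and 0 had an adjusted p under 0.05. DESeq2 called 8 of them, and 627 genes of the whole table. Without wildtype replicate 2 edgeR called 6, beside 2.88% of all genes tested. The cell cycle genes summed to 6795 to 12219 in Nhe6 KO against 2190 to 3323 in wildtype cultures. The part of cell makeup or growth state in the values of the contractile genes was not tested.

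**Figure D4:**
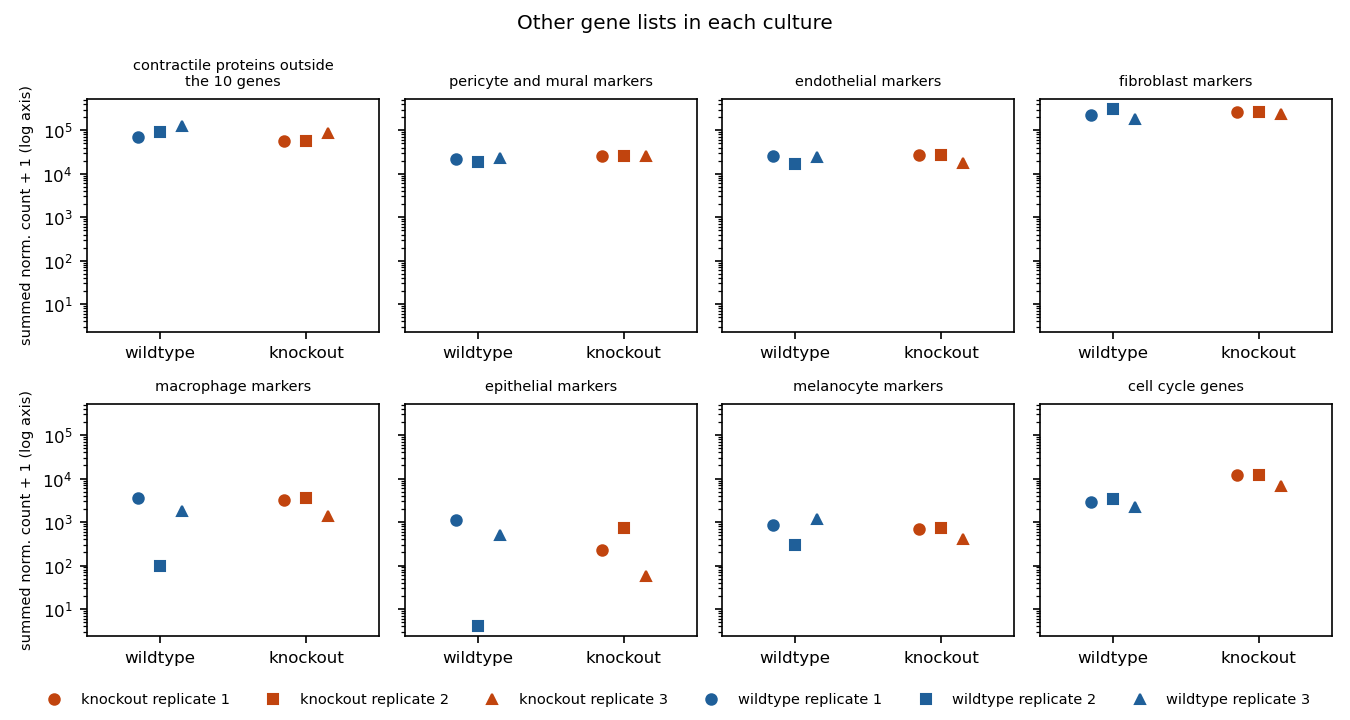
Summed normalized count plus 1 of 8 gene lists in each of the 6 cultures, on log axes, 1 panel per list and 1 point per culture. The contractile panel holds the proteins outside the 10 genes, with its highest point in wildtype replicate 3 (127002). Wildtype replicate 2 is the highest point for the fibroblast markers (300944) and the lowest for the macrophage (95.9) and epithelial (3.09) markers.

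The genes whose pattern over the 6 libraries was most like the mean of the 8 tested contractile genes were Itga1 (Pearson r = 0.995), Pla2r1 (0.992), Sipa1l1 (0.991), Pdlim4 (0.988) and Ncs1 (0.988), out of 11130 genes that averaged 100 normalized counts or more. The Spearman rho of these genes was 0.943 or 1. Without wildtype replicates 1 and 2, the libraries farthest from the median, r over the remaining 4 lay between 0.979 and 0.992. Itga1, which encodes an integrin subunit that binds collagen, was measured at 721, 663 and 1903 normalized counts in Nhe6 KO and 209, 2980 and 599 in wildtype cultures. The order was again wildtype replicate 2, Nhe6 KO replicate 3 and, at the bottom, wildtype replicate 1. The log2 fold changes of the 5 genes lay between -0.25 and 0.06 (adjusted p from 0.912 to 0.973, edgeR). The libraries of a correlation share their culture conditions and depth, and the values are a description.

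Among the Nhe6 KO cultures replicate 3 was the highest for Acta2, Tagln, Myh11, Cnn1, Myl9, Tpm1 and Lmod1, replicate 2 for Tpm2 and Myocd, and replicate 1 for Des. Wildtype replicate 1 was the lowest or joint lowest of the 6 libraries for Acta2, Tagln, Cnn1, Tpm1 and Myocd. Acta2, Tagln, Cnn1 and Tpm1 therefore shared both ends of their order. Myocd had 6 reads in wildtype replicate 2 and in Nhe6 KO replicate 2, and 0 reads in Nhe6 KO replicate 3 and wildtype replicate 1. These are too few reads to set an order. Des ran from Nhe6 KO replicate 1 at the top to wildtype replicate 2 at the bottom. Lmod1 had its own order, with wildtype replicate 1 highest and Nhe6 KO replicate 1 lowest.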

How the data were processed

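The authors enriched poly(A) RNA, made stranded libraries and sequenced them for 75 cycles; the submitters' processing notes list STAR 2.7.7a, HTSeq 0.13.5, DESeq2 1.26.0 and mm10. The annotation and strand setting of the counting are not given in the sources used here. The deposited table holds raw counts per gene, 1 column per culture, with 5 summary lines (21.5% to 23.6% of reads) that were left out. Genes were filtered (filterByExpr, minimum count 10), scaled by TMM and compared by genotype in edgeR 4.0.16 (R 4.3.3, quasi-likelihood F test, two-sided, Benjamini-Hochberg over all 13479 genes, threshold 0.05). The SE is the log2 fold change divided by the square root of F. RPKM used merged GENCODE M21 exons. The fits were also run on simulated counts, with the same dispersion for all genes and no divergent culture. That run does not show how they behave on data with such a culture. The genes named are the 10 members, the listed genes and the 5 most similar genes. The level of the targeted gene is not reported here. Members and lists were chosen with earlier results of these data known. Alternatives were DESeq2 1.42.0, limma-voom (limma 3.58.1), other scalings and filters, a replicate block and leaving out each culture. The p-values weigh the difference between genotypes against the spread between libraries, each taken as a separate culture. Nhe6 KO replicates 1 and 2 were the closest pair (chi-square per degree of freedom 4.912, and 90.11 to 398.4 for other pairs within a genotype). They differed beyond sampling noise and were kept as separate cultures. Their independence was not tested, and a fit with them summed is given below.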

Additional observations from a re-analysis of the deposited data

How the results depend on the processing

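In each of 14 alternatives 0 of the contractile genes that received an adjusted p were under 0.05 (Cnn1 and Myocd were tested without the filter, and Acta2 had none in DESeq2), Lmod1 stayed below 0 (log2 fold change -1.39 to -0.90) and Des, tested in 13 of them, above 0 (1.21 to 2.33). Without wildtype replicate 2 the log2 fold change turned for Acta2 (3.63), Tagln (1.16), Myl9 (-0.15), Tpm1 (0.10) and Tpm2 (0.22), and the median of the set moved to 0.16. Without wildtype replicate 3 Myh11 turned to 0.011, without Nhe6 KO replicate 3 Myl9 turned to -0.20, and without wildtype replicate 1 the median was -0.65. Leaving out 1 culture at a time gave -4.07 to 3.63 for Acta2, -2.74 to 1.16 for Tagln, -0.40 to 0.011 for Myh11, -0.20 to 0.41 for Myl9, -0.71 to 0.10 for Tpm1, -0.30 to 0.22 for Tpm2 and -0.65 to 0.16 for the median, with adjusted p over all alternatives of 0.0821 to 0.993 for Acta2.

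limma-voom gave Acta2 a log2 fold change of 0.67. The replicate numbers do not pair the cultures (correlations of deviations 0.1978, -0.2044 and 0.09366). With the replicate number as a block, Acta2 was at 1.83, Tagln at 0.081 and the median at 0.026, and 2 genes of the whole table were called.

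The number of genes called was 21 without the filter, 21 with at least 10 counts in every library, 627 by DESeq2, 1 with Nhe6 KO replicates 1 and 2 summed (chosen after seeing the data) and 0 to 395 with 1 culture left out. Of the lists, the other contractile proteins had 2 calls without wildtype replicate 2 (0 to 2 with any culture left out), non-muscle actomyosin 1 (0 to 1), and the regulators 1 without that culture (0 to 1) and 1 by DESeq2. Upper-quartile scaling left 1 of the 10 genes without overlap between genotypes, and leaving out a culture gave 2 to 3. The causes were not tested. Cnn1 and Myocd had too few reads to show a difference at this depth.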
